A study of Mus musculus with 9 samples.

Results

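Sertoli cells are described here in single cell RNA-seq libraries of the whole testis of 9 mice at postnatal day (PND) 24, with 1 library per mouse. A barcode was counted as a Sertoli cell if it held over 1000 detected genes and under 10% mitochondrial UMIs, a UMI in at least 3 of the 7 genes Rhox8, Aard, Cst9, Defb36, Wfdc10, Amhr2 and Fndc5, and at least 0.2% of its UMIs in these 7 genes together. A UMI is a tag that counts 1 captured transcript. The rule kept 3593 of the 45132 barcodes that passed the limits on genes and mitochondrial UMIs. The cells were thus chosen by the UMIs of the 7 genes, which were left out of all counts of changed genes.

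The study asked how loss of 2 regulators of transcription, NELF-B and TDP-43, affects germ cells. NELF-B is a subunit of the NELF complex, which holds RNA polymerase II in a paused state near promoters, and TDP-43, encoded by Tardbp, is a protein that binds RNA and DNA. The 2 NELF-B cKO mice and the 3 TDP-43 cKO mice carried 1 floxed and 1 null allele of Nelfb or Tardbp together with the transgene Stra8-iCre, and the 4 Control mice, littermates or not, are labelled C57BL/6 with no further allele. Stra8-iCre directs the recombinase to spermatogonia (SG), so the second allele of a Sertoli cell was not the intended target, while the null allele is present in every cell of a cKO mouse.

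Sertoli cells are the somatic cells that line the seminiferous tubule. Each one holds germ cells at many stages of development at once, supplies them with lactate, metals, retinoids and growth factors, engulfs their residual cytoplasm and seals the tubule with the junctions of the blood-testis barrier. They respond to hormones such as FSH, through its receptor Fshr, and keep their identity through the transcription factors Sox9, Wt1 and Gata4.

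Sertoli cells numbered 458, 536, 303 and 401 in Control, 291 and 337 in NELF-B cKO and 597, 328 and 342 in TDP-43 cKO. They made up 6.01%, 6.34%, 5.91% and 8.22% of the kept barcodes in Control, 5.16% and 11.3% in NELF-B cKO and 15.1%, 10.9% and 9.90% in TDP-43 cKO. The share was 6.62% ± 1.08 in Control (SD, n = 4) and 12.0% ± 2.78 in TDP-43 cKO (SD, n = 3), and the 2 groups did not overlap (exact two-sided permutation p = 0.0571, the smallest p that 4 against 3 mice allow). The share in NELF-B cKO was 8.23% ± 4.34 (SD, n = 2), with 1 mouse below all Control mice and 1 above them (exact two-sided permutation p = 0.667, where 0.133 is the smallest possible). Shares are not numbers: the cell counts averaged 424.5 ± 98.1 in Control and 422.3 ± 151 in TDP-43 cKO (exact permutation p = 1). They averaged 314 ± 32.5 in NELF-B cKO (exact permutation p = 0.267). Cells of at least 10000 UMIs averaged 58.25 ± 28.0 in Control and 245 ± 123 in TDP-43 cKO (exact permutation p = 0.0571). In NELF-B cKO they averaged 69.5 ± 17.7 (exact permutation p = 0.8). The paper gives a target number of cells per library, so these counts do not give Sertoli cells per testis. Among barcodes with at least 10000 UMIs, Sertoli cells made up 3.64% ± 1.05 in Control, 10.4% ± 3.11 in TDP-43 cKO (exact permutation p = 0.0571) and 3.57% ± 0.724 in NELF-B cKO (p = 1). In a further ratio, all Sertoli cells were set over only those kept barcodes that held at least 2000 UMIs. Sertoli cells under 2000 UMIs thus stayed in the numerator and left the denominator. This ratio is not a share, so it cannot test the difference of 5.34 points. It was 11.3% ± 2.70 in Control and 12.4% ± 2.71 in TDP-43 cKO (exact permutation p = 0.514), which differ by 1.13. In NELF-B cKO it was 9.51% ± 3.25 (exact permutation p = 0.533). In shares, fewer germ cells and more Sertoli cells cannot be told apart.

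Depth divided the groups. The median Sertoli cell held 1841.5, 1940, 1765 and 2106 UMIs in Control, 2262 and 2975 in NELF-B cKO and 23209, 6129.5 and 18743.5 in TDP-43 cKO. Of the 1698 Control cells, 1248 held under 3000 UMIs, against 353 cells in the NELF-B cKO mice and 333 in TDP-43 cKO. Cells with at least 10000 UMIs numbered 1108, of which the Control mice gave 23, 64, 55 and 91, the NELF-B cKO mice 57 and 82, and the TDP-43 cKO mice 384, 148 and 204.

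The share of mitochondrial UMIs, a sign of RNA quality, also differed between the groups. Its median per Sertoli cell was 1.81%, 3.13%, 2.51% and 3.25% in Control, 5.25% and 4.26% in NELF-B cKO and 4.21%, 5.71% and 5.96% in TDP-43 cKO, so every cKO mouse was above every Control mouse (exact two-sided permutation p = 0.0571 for TDP-43 cKO and 0.133 for NELF-B cKO, the smallest possible). In cells with at least 10000 UMIs the medians overlapped, at 4.93% to 8.12% in Control and 4.16% to 7.44% in TDP-43 cKO.

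**Figure D1:**
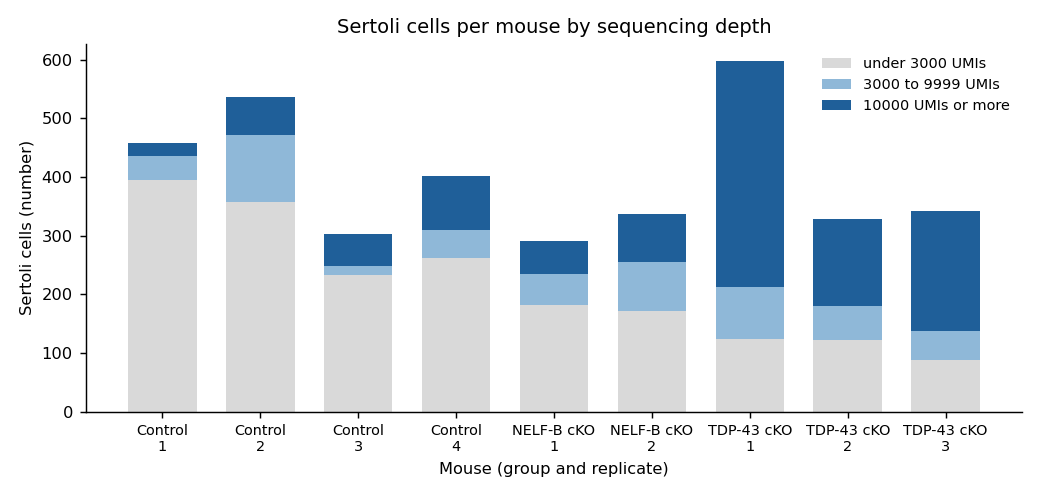
Number of Sertoli cells per mouse (bars, from 0), divided by the UMIs of the cell into under 3000, between 3000 and 10000, and at least 10000. The Control bars consist mostly of cells under 3000 UMIs, and the 3 TDP-43 cKO mice hold 384, 148 and 204 cells of at least 10000 UMIs.

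The label was checked with 20 Sertoli identity genes that the rule did not use, among them Sox9, Wt1, Gata4, Fshr, Inha, Kitl and Cldn11. Together they took 0.667% to 1.24% of the UMIs of Sertoli cells in Control, 0.900% to 1.40% in NELF-B cKO and 1.19% to 1.44% in TDP-43 cKO. In all other kept barcodes they took 0.0291% to 0.204%, and in free RNA, the pool of barcodes with 1 to 100 UMIs that hold no cell, 0.0694% to 0.618%. In cells with at least 10000 UMIs the groups overlapped, with 1.04% to 1.34%, 0.983% to 1.51% and 1.21% to 1.45% in Control, NELF-B cKO and TDP-43 cKO.

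The label held less well for shallow barcodes and at the edge of the rule. Control cells under 3000 UMIs had 0.292% to 0.654% of their UMIs in the 20 identity genes. Such cells had 0.524% and 0.818% in NELF-B cKO and 1.05%, 0.860% and 0.779% in TDP-43 cKO. The other kept barcodes of that depth had 0.0824% to 0.0932% in Control. Values at the edge of the rule are medians over single barcodes, with a median of 1667 to 1856 UMIs inside it in Control. Those of free RNA are pooled shares, so the 2 measures differ. The 141 cells of Control replicate 1 with 0.2% to 0.25% of UMIs in the 7 markers had 0.0940% in the identity genes. The 242 barcodes with 0.15% to 0.2% had 0.103%, and free RNA of that mouse had 0.0828%. Control replicate 2 had 0.116% inside, 0.111% outside and 0.0896% in free RNA, and Control replicate 3 had 0.119%, 0.112% and 0.130%. In Control replicate 4 the values were 0.168%, 0.116% and 0.154%. At the threshold, the median identity share of the Control cells thus stood near the pooled share of free RNA. The cKO mice had fewer cells at this edge, 9 and 40 in NELF-B cKO and 14, 15 and 7 in TDP-43 cKO. Those of NELF-B cKO had 0.101% and 0.372% in the identity genes, against 0.0694% and 0.618% in free RNA. Those of TDP-43 cKO had 0.437%, 0.339% and 0.382%, against 0.378%, 0.301% and 0.299%. Control replicate 1 had the lowest identity share, the fewest cells of at least 10000 UMIs and the most germ cell RNA of the Control mice, and the counts of changed genes are given with and without it. Among the 9 mice, 1 barcode was shared, between Control replicate 1 and TDP-43 cKO replicate 1.

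RNA of germ cells was found in the Sertoli cells of all mice and differed between the groups. The 48 genes of 3 germ cell lists (SG and early meiosis, pachytene spermatocytes, round spermatids) took 1.49%, 0.652%, 0.915% and 0.637% of Sertoli UMIs in Control, 0.738% and 0.125% in NELF-B cKO and 0.0839%, 0.267% and 0.228% in TDP-43 cKO. Every Control mouse was above every TDP-43 cKO mouse (exact two-sided permutation p = 0.0571, the smallest possible), and the NELF-B cKO mice fell apart, one among the Control mice and one among the TDP-43 cKO mice. Free RNA followed the same order, with 2.64%, 2.03%, 2.38% and 2.39% in Control, 2.17% and 0.493% in NELF-B cKO, and 0.273%, 1.00% and 0.860% in TDP-43 cKO. In cells with at least 10000 UMIs the share was 0.346% to 0.666% in Control and 0.0844% to 0.254% in TDP-43 cKO. Control cells under 3000 UMIs had 2.34%, 1.42%, 1.90% and 1.54%, against 2.63%, 1.82%, 2.41% and 2.37% in other kept barcodes of that depth. In TDP-43 cKO such cells had 0.0733%, 0.558% and 0.373%, against 0.261%, 1.15% and 0.969%. Scaled by these genes, free RNA was estimated at 56.5%, 32.1%, 38.4% and 26.6% of Sertoli UMIs in Control. The estimate was 34.1% and 25.4% in NELF-B cKO, and 30.7%, 26.6% and 26.5% in TDP-43 cKO.

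**Figure D2:**
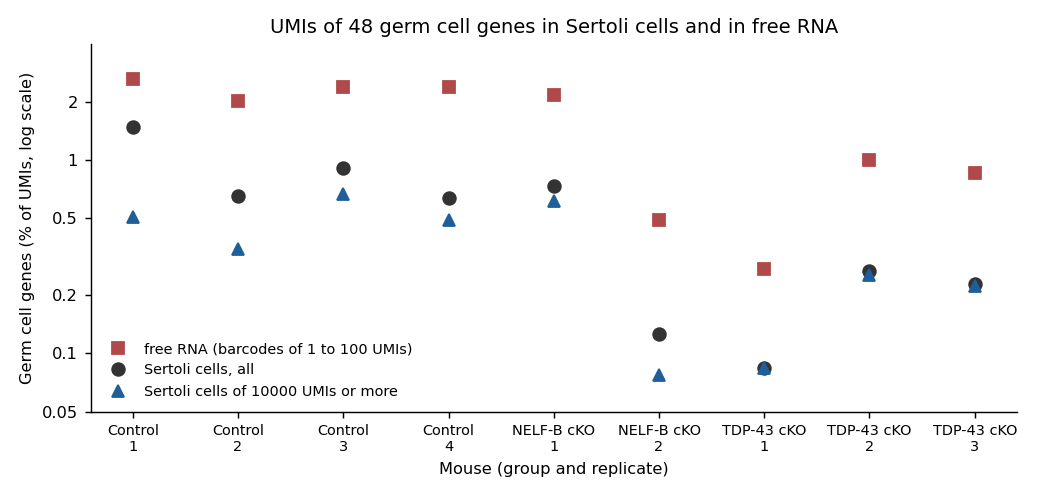
Percentage of UMIs in 48 germ cell genes (log axis) for each mouse, in free RNA, in all Sertoli cells and in Sertoli cells with at least 10000 UMIs. Free RNA lies above the Sertoli cells in every mouse, and NELF-B cKO replicate 2 lies with the TDP-43 cKO mice at 0.125% in all its Sertoli cells.

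RNA of other somatic cells was scarcer. The 7 tested Leydig genes took 0.00179% to 0.00619% of Sertoli UMIs in Control, 0.0132% to 0.0529% in NELF-B cKO and 0.00746% to 0.0210% in TDP-43 cKO. Macrophage genes took 0.000416% to 0.00365%, 0.00307% to 0.00442% and 0.000531% to 0.0111%, in the same order. Peritubular myoid genes took 0.000799% to 0.00291%, 0.00170% to 0.00558% and 0.00476% to 0.00730%. Genes of the interstitial stroma took 0.00117% to 0.00390%, 0.00591% to 0.00989% and 0.00250% to 0.0124%, with both NELF-B cKO mice above every Control mouse. The Leydig share was higher in all 5 cKO mice than in any Control mouse, and the myoid share was higher in all TDP-43 cKO mice than in any Control mouse. All of these shares were below those of the germ cell genes in the same groups.

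Levels are in CPM, UMI counts scaled to the same total of Sertoli UMIs in each mouse. A transcript gives 1 tag at its 3′ end, so no division by length was made. Among the 12 genes with the highest median over the 9 mice were Defb19 and Cst12, a defensin and a cystatin of the seminiferous tubule and epididymis, with 4050 to 8459 CPM (median 5827) and 2383 to 4133 CPM. Clu, the secreted chaperone clusterin, ranged from 2477 to 6303 CPM and Ctsl, the lysosomal protease cathepsin L, from 1785 to 3471 CPM. Malat1, Gm42418, which overlaps ribosomal RNA, Chchd2, Ubb, Tmsb4x, Actb, Sparc and the rule marker Aard completed the 12.

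Among genes of at least 50 CPM in every mouse, the 12 with the largest lowest ratio to the other kept barcodes were Cidea, Sept14, Cstdc1, Shbg, Gm9112, Gstm6, 1700011M02Rik, Nr0b1, Etd, 1700018G05Rik, Basp1 and Cst12. In the mouse where the ratio was lowest, Cidea was still 34.9-fold, Shbg 31.7-fold and Nr0b1 25.7-fold above the other barcodes. Cidea is a lipid droplet protein, Shbg encodes the androgen-binding protein of the tubule, and Nr0b1 is the nuclear receptor DAX-1. These ratios describe the chosen cells and were not tested.

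The transcription factors of Sertoli identity were detected in all 9 mice. Sox9 had 132, 266, 216 and 259 CPM in Control, 281 and 352 in NELF-B cKO and 431, 334 and 357 in TDP-43 cKO. Wt1 had 149, 268, 231 and 274 CPM, then 293 and 328, then 347, 321 and 353. Control replicate 1 was lowest for both genes. Fshr, the receptor of FSH, ranged from 53.9 to 178 CPM and was also lowest in Control replicate 1.

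Hormones and niche factors were also present. Inha, the inhibin alpha subunit, ranged from 665 to 1586 CPM, Kitl, the ligand of the receptor Kit on SG, from 152 to 461 CPM, and Amh, the hormone of fetal and immature Sertoli cells, from 15.9 to 54.5 CPM. Gdnf, a growth factor for SG stem cells, was low, at 2.0 to 16.3 CPM with a median of 7.65. Of the barrier genes, Cldn11, which forms the tight junction strands, ranged from 212 to 677 CPM, and Espn, an actin bundling protein of the ectoplasmic specialization, from 475 to 1005 CPM.

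Cells of a mouse differed among themselves, which was measured after each cell was thinned to 3000 UMIs and cells with fewer were left out. That left 63, 178, 70 and 139 cells in Control, 109 and 166 in NELF-B cKO and 474, 206 and 254 in TDP-43 cKO. The variance over the mean had a median over mice of 18.2 for Malat1, 8.15 for Defb19, 5.95 for Clu and 4.94 for Tmsb4x. It lay between 4.50 and 12.1 for mt-Co3, mt-Atp6, mt-Co2, mt-Cytb, mt-Co1 and mt-Nd1, and at 11.9 for Gm42418. The germ cell genes Ldhc and Meig1 had 6.95 and 5.03.

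Some of these genes varied together, in pairs that were chosen after their values were seen. The Spearman correlation of Defb19 and Cst12 over the cells of a mouse was 0.634 to 0.841 in the 9 mice, and 0.546 to 0.777 over cells of at least 10000 UMIs. The sum of 5 long genes, Pard3b, Magi2, Grip1, Ctnna2 and Ctnna3, correlated with the nuclear RNA Malat1 at 0.646 to 0.754. Ctsl and Clu correlated at 0.327 to 0.770, and Defb19 and Clu at 0.066 to 0.753. The cells share a library and a thinned depth, and germ cell RNA correlated with Clu at -0.776 to -0.152, so these values are descriptions only.

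Nelfb, the targeted gene of the NELF-B cKO mice, was low in their Sertoli cells as well. It had 16.6, 25.5, 21.3 and 27.8 CPM in Control (from 25, 100, 46 and 107 UMIs), 5.17 and 10.3 CPM in NELF-B cKO (from 14 and 49 UMIs), and 25.7, 28.4 and 25.9 CPM in TDP-43 cKO. Both NELF-B cKO mice were below all other mice. The mean was 22.8 ± 4.92 CPM in Control (SD, n = 4) and 7.74 ± 3.63 in NELF-B cKO (SD, n = 2), a log2 fold change of -1.55 ± 0.31 (SE). This did not pass the test over all genes (edgeR, Benjamini-Hochberg adjusted p = 0.255), and the exact permutation p of 0.133 is the smallest that 4 against 2 mice allow. With DESeq2 it passed, at a log2 fold change of -1.54 and an adjusted p of 0.00393.

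Nelfb fell elsewhere in the same mice. The other kept barcodes had 25.8 to 32.0 CPM in Control and 5.77 and 9.90 CPM in NELF-B cKO, and free RNA had 17.6 to 29.1 CPM in Control and 2.78 and 5.53 CPM in NELF-B cKO. After free RNA was subtracted from Sertoli cells of at least 10000 UMIs, the log2 fold change of Nelfb was -1.51 (edgeR adjusted p = 0.314). At 3000 UMIs per cell, 6.35% to 10.1% of Control Sertoli cells, 0.917% and 2.41% of those of the NELF-B cKO mice and 7.28% to 8.65% of those of the TDP-43 cKO mice held a Nelfb UMI.

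Tardbp, the targeted gene of the TDP-43 cKO mice, had 97.9, 104, 117 and 112 CPM in Control, 112 and 113 in NELF-B cKO and 80.9, 77.8 and 72.8 in TDP-43 cKO. The 3 TDP-43 cKO mice were below all others. The mean was 108 ± 8.39 CPM in Control (SD, n = 4) and 77.2 ± 4.11 in TDP-43 cKO (SD, n = 3), a log2 fold change of -0.52 ± 0.12 (SE; edgeR adjusted p = 0.0371, exact permutation p = 0.0571). Other kept barcodes had 94.3 to 107 CPM in Control and 47.5 to 59.1 CPM in TDP-43 cKO. The call did not hold in Sertoli cells of at least 10000 UMIs (log2 fold change -0.45, adjusted p = 0.097) or with free RNA subtracted from all cells (-0.54, adjusted p = 0.119). Tags at the 3′ end of Tardbp do not show whether the deleted exon is present.

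**Figure D3:**
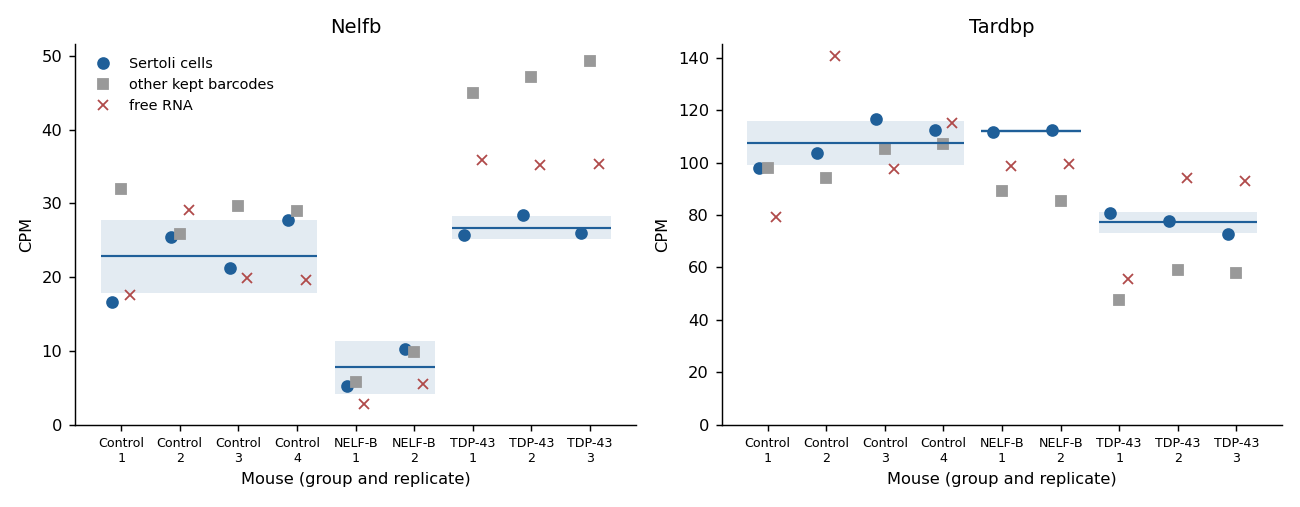
CPM of Nelfb and Tardbp in Sertoli cells, in the other kept barcodes and in free RNA. Points are mice, lines group means and bands 1 SD. Nelfb is lowest in the NELF-B cKO mice in all 3 pools, and Tardbp is lowest in the TDP-43 cKO mice among Sertoli cells and other kept barcodes.

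Across all genes, the sums of UMIs per mouse were compared in 15425 genes, with the mouse as the replicate. In TDP-43 cKO against Control, 655 genes rose (4.25% of those tested) and 1938 fell (12.6%; edgeR quasi-likelihood test, Benjamini-Hochberg adjusted p under 0.05). The lowest adjusted p among these calls was 0.0371, so all of them stood close to the threshold. No gene was called without Control replicate 1, without Control replicate 3 or without any 1 of the 3 TDP-43 cKO mice. Without Control replicate 1, 1756 genes were higher and 3156 lower at an unadjusted p under 0.05, and the lowest adjusted p was 0.0704. DESeq2 called 1156 higher and 3473 lower. The depth of the cells and their germ cell, Leydig, myoid and mitochondrial shares differed between the same groups, as given above, and their part in the calls was not tested, except as counted below in deeper cells and with free RNA subtracted.

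In NELF-B cKO against Control, 0 genes rose and 0 fell (0% each) with edgeR, where the lowest adjusted p was 0.219. At an unadjusted p under 0.05, 1214 were higher and 832 lower, and DESeq2 called 70 higher and 9 lower. TDP-43 cKO against NELF-B cKO also gave 0 and 0 (0% each), with 104 and 558 at an unadjusted p under 0.05 and 2 and 6 by DESeq2. The 2 comparisons with Control share the Control mice. With 2 NELF-B cKO mice that differ from each other, a missing call does not show that the groups were alike.

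The genes that fell were largely genes abundant in free RNA. Of the 1938 genes lower in TDP-43 cKO, 97.8% were higher in Control free RNA than in Control Sertoli cells, against 46.5% of all genes tested and 16.8% of the 655 genes that rose. The median log2 fold change was -2.79 for the genes that fell and 1.12 for those that rose. The 8 named genes that fell were Rnf151, Prm3, Cypt4, Gm9999, Spata45, Hils1, Spata46 and Gsg1, most of them genes of spermatids such as the spermatid histone Hils1 and the protamine Prm3. They had log2 fold changes of -6.88 to -5.68, with 9.69 to 178 CPM in Control, 0 to 2.41 CPM in the TDP-43 cKO mice and 60.9 to 474 CPM in Control free RNA. With 1 mouse left out these folds ran from -7.81 to -4.96 and moved by over 1.5 times, in 1 or more of the genes, without Control replicate 1 or any 1 of the TDP-43 cKO mice. None of the 8 could be tested after free RNA was subtracted from cells of at least 10000 UMIs.

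**Figure D4:**
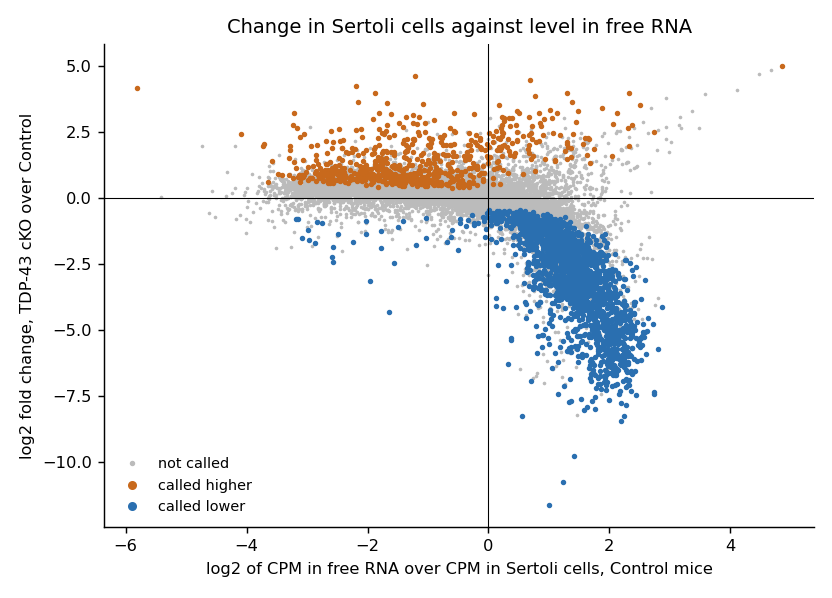
Log2 fold change of TDP-43 cKO against Control in Sertoli cells (vertical) against the log2 ratio of Control free RNA to Control Sertoli cells (horizontal) for 15417 genes. The 1938 genes that fell lie mostly on the right, where free RNA exceeds the Sertoli cells, and the 652 plotted genes that rose lie mostly on the left. The 8 genes at 0 in either pool are not shown.

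A second count was therefore made in cells of at least 10000 UMIs with free RNA subtracted, an alternative chosen after the data were seen. There 107 of 12562 genes were called higher (0.852%) and 57 lower (0.454%). Most of the lower calls were genes that the subtraction left near 0, such as Gm42418, at -16.43 after it and -1.48 among all cells. Some of these were higher among all cells, such as Mcm2 at 0.30 and Rims1 at 0.71, against -8.36 and -7.74 after subtraction. The higher calls include such genes too, among them Itgb3bp at 8.62 and 0610009L18Rik at 8.37, which were at -1.98 and -2.84 among all cells. Of the 655 genes that rose, 629 could be tested there, 612 had the same sign and 102 were called. Of the 1938 genes that fell, 770 could be tested, 536 had the same sign and 16 were called. The deeper cells are part of the cells tested first. They held 39.8% to 81.1% of the Sertoli UMIs of Control mice and 91.9% to 96.2% of those of TDP-43 cKO mice. A shared sign is thus no separate evidence. In cells of at least 10000 UMIs without subtraction no gene was called, with 1289 higher and 1803 lower at an unadjusted p under 0.05 and a lowest adjusted p of 0.0617.

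The named genes that rose in TDP-43 cKO were Wfdc18, Igfbp3, Ccn1, Creb5, Fabp3, Tnfrsf12a, Pdlim4 and Ildr2, with log2 fold changes of 2.54 to 4.14. Each had an adjusted p of 0.0371, and in each gene all 3 TDP-43 cKO mice were above all 4 Control mice. They are secreted proteins, receptors, a transcription factor and proteins of the cytoskeleton and of lipid transport, and all but Fabp3 were at 4.80 CPM or less in Control free RNA. In free RNA of the TDP-43 cKO mice these 7 genes stood higher, at 4.50 to 69.4 CPM, with the highest value in Ccn1. In the other kept barcodes, too, each of these 7 genes was higher in every TDP-43 cKO mouse than in any Control mouse. Ccn1 reached the highest value there, with 3.52 to 5.76 CPM in Control and 9.14 to 54.8 CPM in TDP-43 cKO.

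Wfdc18, which encodes a small secreted protein with the four-disulfide core of protease inhibitors, had 12.6, 8.92, 0 and 6.76 CPM in Control, 17.4 and 82.7 in NELF-B cKO and 124, 163 and 91.7 in TDP-43 cKO. Control replicate 3 held no UMI, and the NELF-B cKO mice lay between the groups. The mean rose from 7.08 ± 5.31 CPM (SD, n = 4) to 126 ± 35.5 (SD, n = 3), a log2 fold change of 4.14 ± 0.75 (SE), and with at least 10000 UMIs and free RNA subtracted it was 4.30 (adjusted p = 0.016). At 3000 UMIs per cell, 0% to 1.59% of Control Sertoli cells, 2.75% and 6.02% of those of the NELF-B cKO mice and 6.69% to 12.9% of those of the TDP-43 cKO mice held a UMI, against 0% to 1.8% of other barcodes.

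Igfbp3, which binds insulin-like growth factors outside the cell, had 3.33, 5.35, 0.925 and 2.86 CPM in Control, 22.2 and 60.4 in NELF-B cKO and 80.4, 36.8 and 38.0 in TDP-43 cKO. Both cKO groups were above all Control mice. The log2 fold change was 3.95 ± 0.54 (SE) in TDP-43 cKO and 3.66 ± 0.57 in NELF-B cKO (edgeR adjusted p = 0.0371 and 0.219). The NELF-B cKO value was 4.25 without its replicate 1 and 2.77 without its replicate 2. The difference between the cKO groups was 0.29 ± 0.55 (adjusted p = 0.991).

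Creb5, a leucine zipper transcription factor that binds cAMP response elements, had 9.32, 20.1, 4.16 and 4.68 CPM in Control, 21.4 and 94.9 in NELF-B cKO and 163, 120 and 84.4 in TDP-43 cKO. The log2 fold change was 3.60 ± 0.63 (SE) in TDP-43 cKO, and 3.71 with at least 10000 UMIs and free RNA subtracted (adjusted p = 0.027). Without Control replicate 2, the highest Control mouse, it was 4.37 (adjusted p = 0.0407). Ccn1, a secreted matrix protein and an early target of growth signals, had 8.65, 9.94, 3.24 and 11.2 CPM, then 8.13 and 79.8, then 172, 90.2 and 56.8. Its log2 fold change was 3.62 ± 0.72 (SE) in TDP-43 cKO. NELF-B cKO replicate 1 lay within the Control range for Ccn1 and replicate 2 within that of the TDP-43 cKO mice.

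Tnfrsf12a, the receptor of the cytokine TWEAK, ranged from 6.66 to 21.4 CPM in Control and from 55.5 to 118 in TDP-43 cKO, with 31.0 and 87.5 in NELF-B cKO. Pdlim4, a PDZ and LIM protein of actin fibres, ranged from 5.09 to 16.6 and from 57.3 to 96.2 CPM, with 26.2 and 72.6 in NELF-B cKO. Ildr2, an immunoglobulin-like membrane protein, ranged from 3.70 to 13.5 and from 38.8 to 74.5 CPM, with 22.2 and 48.2 in NELF-B cKO. In all 3 genes NELF-B cKO replicate 1 was between the Control and the TDP-43 cKO mice, which do not overlap by the choice of the genes.

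Fabp3, a fatty acid binding protein, ranged from 5.09 to 26.0 CPM in Control and from 104 to 145 in TDP-43 cKO, with 37.3 and 225 CPM in NELF-B cKO. It was 34.6 to 58.2 CPM in Control free RNA and 82.8 to 705 CPM in that of the TDP-43 cKO mice. After subtraction in cells of at least 10000 UMIs its log2 fold change was 3.02 (adjusted p = 0.4), and it alone of the 8 was not called there.

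**Figure D5:**
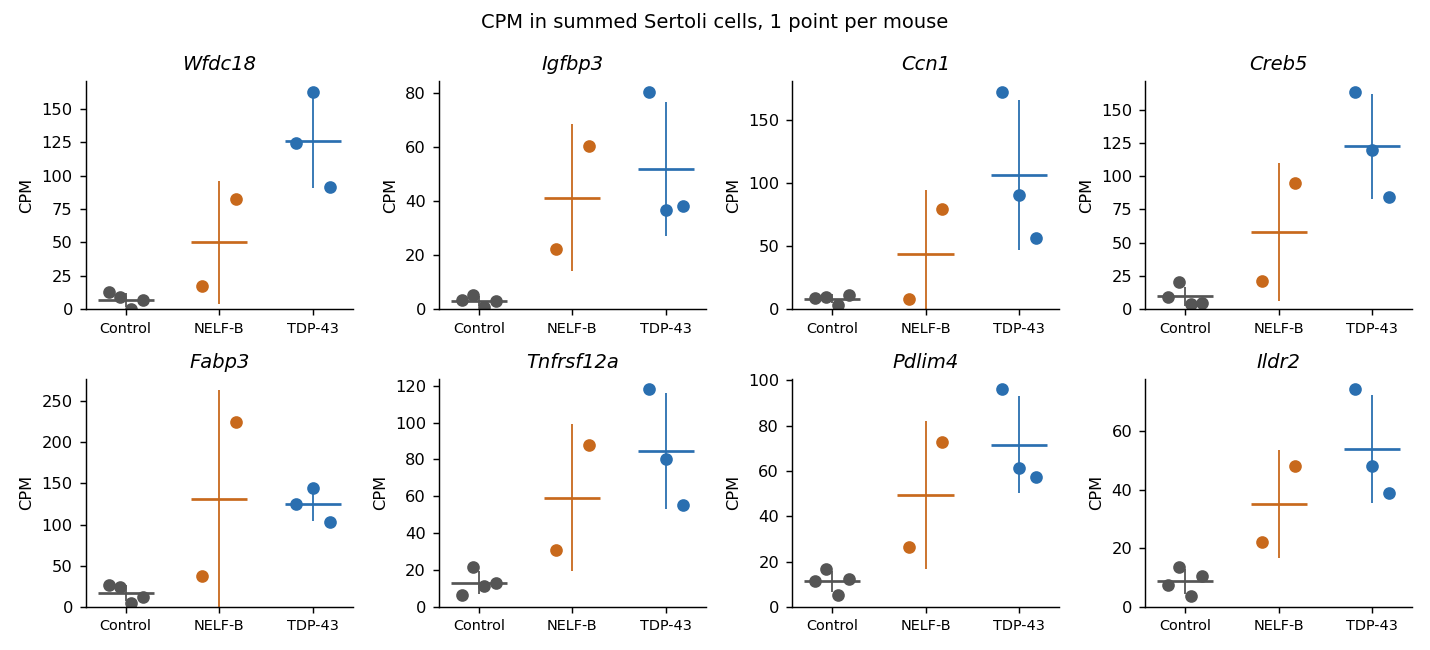
CPM in Sertoli cells of the 8 named genes that rose in TDP-43 cKO against Control. Points are mice, lines means and bars 1 SD, cut at 0. In each panel the 3 TDP-43 cKO mice lie above the 4 Control mice, which the choice of the genes required. NELF-B cKO replicate 2 lies above replicate 1 in each.

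The promoters of these genes are shown for Wfdc18, which changed most, and for Creb5, which held 2 of the 3 motifs searched. The sequences are the 250 bases before the annotated start, from RefSeq on GRCm38.p6, 5′ to 3′ on the strand of the gene, with capitals for a motif: Wfdc18 at chr11:83708754-83709003 (plus strand), and the 2 starts of Creb5 at chr6:53287053-53287302 and chr6:53573124-53573373 (plus strand). In the first Creb5 sequence the capitals mark the cAMP response element TGACGTCA, and in the second the AP-1 motif.
Wfdc18: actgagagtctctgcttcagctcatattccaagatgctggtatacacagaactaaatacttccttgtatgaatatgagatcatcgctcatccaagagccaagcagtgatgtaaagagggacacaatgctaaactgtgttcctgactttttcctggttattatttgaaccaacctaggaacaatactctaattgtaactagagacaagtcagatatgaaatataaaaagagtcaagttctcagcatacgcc
Creb5, first start: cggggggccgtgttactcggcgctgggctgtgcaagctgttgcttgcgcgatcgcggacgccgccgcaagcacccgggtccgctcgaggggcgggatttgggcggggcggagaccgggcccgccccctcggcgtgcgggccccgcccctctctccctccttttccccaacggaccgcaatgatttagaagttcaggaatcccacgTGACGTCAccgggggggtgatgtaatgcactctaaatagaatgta
Creb5, second start: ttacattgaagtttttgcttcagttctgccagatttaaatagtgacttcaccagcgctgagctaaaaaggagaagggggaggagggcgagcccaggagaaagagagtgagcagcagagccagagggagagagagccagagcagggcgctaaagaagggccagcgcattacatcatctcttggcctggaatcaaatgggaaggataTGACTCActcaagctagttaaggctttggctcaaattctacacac

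The 3 motifs were chosen after the genes were known and were searched on both strands of 32851 promoters of this length. The AP-1 motif TGANTCA, bound by Fos and Jun proteins, was in 6.75% of them, TGACGTCA in 1.55% and the TEAD motif GGAATG in 12.6%. Of the 9 promoters of the 8 genes, 1 held each motif: Creb5 for both TGANTCA and TGACGTCA, each beginning 45 bases before its start, and Ccn1 for GGAATG.

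Lists of Sertoli functions were then counted in TDP-43 cKO against Control, where 4.25% of all genes rose and 12.6% fell. The median log2 fold change of all genes was 0.01, then -0.03 and -0.04. The first value is of all cells, the others of cells of at least 10000 UMIs without and with free RNA subtracted. Medians below follow this order, and a single median is of all cells. Members of these lists were chosen with earlier results known. In most lists the count of members that rose or fell was small, and the germ cell share differed between the same groups, as given above.

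Of 20 identity genes, 1 rose and 0 fell, with a median log2 fold change of 0.44, then 0.17 and 0.20. The gene was Sox9, at 0.74 ± 0.22 (SE, adjusted p = 0.0498), and it was at 0.47 (adjusted p = 0.0761) with at least 10000 UMIs and free RNA subtracted. Wt1 was at 0.53 (adjusted p = 0.0746) and Gata4 at 0.35 (adjusted p = 0.329). The call for Sox9 did not hold in that setting, and no gene of the list fell.

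Of 16 genes of hormone receptors and hormone response, 3 rose and 1 fell (median 0.52, then 0.16 and 0.19). Thra, the thyroid hormone receptor alpha, had 27.3, 46.7, 39.8 and 67.0 CPM in Control, 77.6 and 92.6 in NELF-B cKO and 111, 84.3 and 93.5 in TDP-43 cKO. All cKO mice were above all Control mice. Its log2 fold change in TDP-43 cKO was 1.04 ± 0.25 (SE), and 0.84 with at least 10000 UMIs and free RNA subtracted (adjusted p = 0.0415). Nr4a1, a nuclear receptor induced within minutes by hormones, was at 2.51 ± 0.58 and Drd4, a dopamine receptor, at 0.80 ± 0.22, and neither was called in that setting. Crem, whose activator form is abundant in spermatids, fell by 1.55 and changed sign there, to 1.61 (adjusted p = 0.509).

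Of 15 tested binding and transport proteins, 3 rose and 1 fell (median 0.59, then 0.37 and 0.36). Among them were Fabp3, described above, and the ferritin light chain Ftl1, which rose by 0.81 on the log2 scale and was at 0.16 (adjusted p = 0.842) with at least 10000 UMIs and free RNA subtracted. The metal transporter Slc39a8 fell by 2.52 and was not called in that setting. Of 14 tested retinoid genes, 1 rose and 2 fell, Rdh11 by 2.18 and Lrat by 3.74, where Rdh11 changed sign in that setting, to 0.25 (adjusted p = 0.943). Lrat was not called there.

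Of 18 tested genes of the blood-testis barrier and adhesion, 3 rose and 0 fell (median 0.60). The 20 genes of the list took 0.189% to 0.325% of Sertoli UMIs in Control and 0.373% to 0.431% in TDP-43 cKO. In cells of at least 10000 UMIs the ranges were closer, at 0.350% to 0.380% and 0.385% to 0.439%. Jam2, a junctional adhesion molecule, had 63.2, 95.4, 91.6 and 109 CPM in Control, 101 and 145 in NELF-B cKO and 166, 145 and 160 in TDP-43 cKO. The TDP-43 cKO mice were above all Control mice. Jam2 was at 0.76 ± 0.19 (SE), and at 0.65 with at least 10000 UMIs and free RNA subtracted (adjusted p = 0.0384). Ctnna1, alpha-catenin, was at 0.63 and was not called there. Cldn11 was at 0.73 with an adjusted p of 0.0593 among all cells.

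Of 16 tested protease inhibitors and proteases, 2 rose and 1 fell. Serpine2, an inhibitor of serine proteases, ranged from 2.00 to 5.61 CPM in Control and from 19.1 to 27.6 in TDP-43 cKO, with 6.65 and 19.6 in NELF-B cKO. It was at 2.51 ± 0.41 (SE) among all cells and 2.20 with at least 10000 UMIs and free RNA subtracted (adjusted p = 0.0415). Timp1, an inhibitor of metalloproteases, was at 1.51 and Spink2, a protease inhibitor of the acrosome, at -3.39. In that setting Timp1 was at 0.83 and was not called (adjusted p = 0.348), and Spink2 could not be tested. Of 15 tested secreted niche and hormone factors, Igf1 and Igfbp3 rose and 0 fell (median 0.77, then 0.40 and 0.20). Igf1 was at 2.49 among all cells and at 1.63 without TDP-43 cKO replicate 1 (adjusted p = 0.16), and it could not be tested in the deeper cells with free RNA subtracted. Of 16 tested cytoskeleton genes, 1 rose: Actn1, an actin crosslinker, with 1.85 to 5.61 CPM in Control and 14.8 to 32.4 in TDP-43 cKO, at 3.03 among all cells and 3.23 in the deeper cells with free RNA subtracted (adjusted p = 0.0347).

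Of 20 immediate early and stress genes, 6 rose and 2 fell (median 0.86). Fos, a subunit of AP-1, had 136, 277, 239 and 183 CPM in Control, 164 and 742 in NELF-B cKO and 762, 696 and 636 in TDP-43 cKO. NELF-B cKO replicate 2 was with the TDP-43 cKO mice, and replicate 1 was within the Control range. Jund, Egr1, Ier3, Atf3 and Hspb1 also rose, by 0.88 to 2.31 on the log2 scale. Atf3, a factor of the stress response, was the one member called with at least 10000 UMIs and free RNA subtracted, at 2.13 (adjusted p = 0.0458). The chaperone genes Dnajb1 and Hsp90aa1 fell, by 1.29 and 1.04, and Dnajb1 changed sign with free RNA subtracted, to 1.58 among all cells (adjusted p = 0.526) and 0.39 in the deeper cells (0.861).

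Of 20 tested genes of lactate and glucose supply, 0 rose and 6 fell. The 6 were Slc2a3, Hk1, Pfkp, Tpi1, Ldha and Slc16a7, at -2.63 to -0.81, and all 6 were higher in Control free RNA than in Control Sertoli cells. None was called with at least 10000 UMIs and free RNA subtracted, where Pfkp and Slc16a7 could not be tested and Tpi1 and Ldha changed sign, to 0.33 and 0.14. Hk1 changed sign with free RNA subtracted from all cells, to 0.31 (adjusted p = 0.913). The other 14 genes of the list did not pass the test, and the median of the 20 was 0.19. Among these 14, Ldhb, a lactate dehydrogenase subunit, was at 0.38 (adjusted p = 0.186), Hk2 at 0.36 (0.322), Pkm at 0.31 (0.286), the glucose carrier Slc2a1 at 0.56 (0.125) and the lactate carrier Slc16a1 at 0.27 (0.340).

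Of 18 cholesterol genes, 1 rose and 4 fell (median -0.19). Among those that fell were the synthesis genes Sqle, Idi1 and Fdft1, by 1.50, 1.12 and 1.44, and none of the 3 was called with at least 10000 UMIs and free RNA subtracted. Fdft1 changed sign with free RNA subtracted from all cells, to 2.91 (adjusted p = 0.284). Star, which brings cholesterol into mitochondria and is also abundant in Leydig cells, rose by 1.57, beside the Leydig gene Cyp11a1 at 2.65 (3.52 without Control replicate 1, adjusted p = 0.0704). Neither was called in the deeper cells with free RNA subtracted (adjusted p = 0.0776 and 0.558).

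Of 28 genes of engulfment and lysosomes, Rac1, Abca1 and Ctsz rose, by 0.60, 1.07 and 1.39, and none fell. Of 14 tested interferon and antigen presentation genes, B2m and H2-D1 rose, by 1.30 and 1.47. No gene of either list was called with at least 10000 UMIs and free RNA subtracted. Of 18 cell cycle genes, Ccnb2 and Birc5 fell and none rose. Of 12 genes of NELF and its partners, Tardbp and Larp7 fell, Larp7 by 1.56, and none rose. Ccnb2, Birc5, Tardbp and Larp7 were not called with at least 10000 UMIs and free RNA subtracted. Of the germ cell lists, 0 of 16 early, 9 of 16 pachytene and 15 of 16 round spermatid genes fell and none rose. Of markers of other somatic cells, Cyp11a1 and Star of the 7 Leydig genes and Acta2 of the 3 tested myoid genes rose, Alas2 of the 4 tested erythroid genes fell, and no endothelial, macrophage or stromal gene was called.

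A set of 43 genes fell in TDP-43 cKO although they were not higher in Control free RNA than in Control Sertoli cells. The set was chosen after the values were seen. Cells of at least 10000 UMIs are part of the cells on which the 43 were chosen. All 1664 genes that fell and could be tested there kept their sign. All 43 had the same sign there, 39 at an unadjusted p under 0.05, which 1803 of all 14521 genes tested there passed as lower. With free RNA subtracted 10 were called there, but 2 of the 10, Gm42418 and Cmss1, were left near 0 by the subtraction and did not pass an unadjusted p of 0.05 without it. In NELF-B cKO, 18 of the 43 were lower at an unadjusted p under 0.05, as were 832 of all 15425 genes, and this contrast uses the Control mice on which the 43 were chosen. The set was read as a description, because its choice used this contrast.

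Alas2, the first enzyme of haem synthesis in red cell precursors, had 20.6, 15.0, 23.6 and 17.7 CPM in Control, 9.24 and 13.3 in NELF-B cKO and 3.60, 3.09 and 4.36 in TDP-43 cKO. The 3 groups did not overlap. Its log2 fold change was -2.41 ± 0.28 (SE) in TDP-43 cKO and -0.77 in NELF-B cKO (unadjusted p = 0.0304), and it was called in the deeper cells with free RNA subtracted (adjusted p = 0.0124). The 5 erythroid markers, Alas2 among them, took at most 0.0344% of Sertoli UMIs in any mouse, in TDP-43 cKO replicate 3, where the globin gene Hbb-bs stood at 181 CPM. Adcy2, an adenylyl cyclase, fell from 29.8 ± 12.1 to 10.3 ± 3.65 CPM and was called there too (adjusted p = 0.025), as was Col27a1, a fibrillar collagen, at 13.5 ± 6.29 and 2.93 ± 0.711 CPM (adjusted p = 0.0427).

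Nid1, the basement membrane protein nidogen, was low in both cKO groups, with 30.0, 25.2, 34.7 and 31.7 CPM in Control, 14.4 and 10.5 in NELF-B cKO and 8.69, 13.9 and 14.4 in TDP-43 cKO. It was at -1.35 ± 0.25 (SE) in TDP-43 cKO and at -1.30 in NELF-B cKO (unadjusted p = 0.00161), and at -2.17 (adjusted p = 0.282) in the deeper cells with free RNA subtracted. Defb45, a defensin, fell from 140 ± 35.4 to 74.8 ± 7.81 CPM and Gm3880 from 371 ± 95.7 to 218 ± 36.5 CPM, while the NELF-B cKO means of 137 and 340 CPM were near those of Control. In Control free RNA they had 20.9 and 41.9 CPM.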

How the data were processed

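Cell Ranger was run by the authors on 3′ single cell libraries, and its output was deposited as raw matrices of UMI counts, whole numbers for each gene and barcode, with neither normalization nor cell selection. Headers of the files give Cell Ranger 4. The submitters' processing notes list 6.1.1 and 7.0.0 beside Seurat 4.2.0 and DESeq2 1.36. The versions differ in whether reads in introns are counted. The libraries held 119203347 to 159407373 UMIs. Counts of the Sertoli cells were summed per mouse, to 1502162 to 18631883 UMIs, and tested with edgeR 4.0.16 in R 4.3.3 (filterByExpr, TMM, glmQLFit, glmQLFTest) over all 9 mice in 1 fit, with Benjamini-Hochberg adjustment over all genes tested. DESeq2 1.42.0, other thresholds, depths and filters, and each mouse left out were alternatives. Tests were two-sided, and intervals between mice are SD.

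The marker rule, the members and the 25 lists were chosen with earlier results of these data known. Genes named in the text are Nelfb and Tardbp, called members of the lists or, where fewer than 2 were called, the 2 with the highest mean, up to 8 called genes per direction of at least 50 CPM with the largest change whose mice do not overlap (without rule markers, germ cell lists and mt- genes), and the 12 highest, most specific and most variable genes. Other genes of the lists were named to show their values. Aldoa was left out because its symbol occurs in more than 1 row. Free RNA is the sum of barcodes with 1 to 100 UMIs, and its subtraction was scaled by the germ cell lists in each mouse, so it removes those genes by construction. No doublet caller was run, and clusters of poor quality, which the study removed, were not sought. A fit without the 20% of cells with the most germ cell UMIs, by their share in each mouse, does not replace a doublet caller. In Control that share was 1.42% to 2.34% in cells under 3000 UMIs and 0.346% to 0.666% in those of at least 10000. Doublets with other somatic cells are not covered by it. On simulated counts with changes added for TDP-43 cKO against Control, edgeR found 27.7%, 76.9% and 94.3% of changes of 1, 1.5 and 2 on the log2 scale. For NELF-B cKO against Control it found 15.4%, 67.2% and 83.1%. The simulation held no free RNA, and changes were added only to genes above 20 CPM in Control. The 8 named genes that rose averaged less than that in Control, so these rates do not cover them. Some genes are not reported here.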

Additional observations from a re-analysis of the deposited data

Results flagged for a closer look

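The limit on mitochondrial UMIs set aside more barcodes with Sertoli markers than it kept. Of the barcodes with over 1000 genes that met the marker rule, 4215 held at least 10% mitochondrial UMIs, against the 3593 Sertoli cells described above, and 2502 of them held at least 10000 UMIs, against 1108. They were 1692 barcodes in the Control mice, 932 in the NELF-B cKO mice and 1591 in the TDP-43 cKO mice. They are given because they carry the markers and stand outside the main comparison. With the limit raised to 20%, Wfdc18 had 5.28, 4.06, 0 and 2.83 CPM in Control, 9.62 and 36.5 in NELF-B cKO and 97.3, 63.0 and 44.1 in TDP-43 cKO. Its log2 fold change in TDP-43 cKO was 4.54 there (edgeR adjusted p = 0.0426), against 4.14 under the lower limit, and 840 genes rose and 1795 fell in TDP-43 cKO against Control (edgeR, adjusted p under 0.05).

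No Control mouse stood apart by Dixon's test in 19 measures (0 measures past the 95% critical value for 4 mice). Chance alone passes this test in about 1 of 20 groups.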

How the results depend on the processing

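Of the results for single genes, 836 values kept their direction and their side of the threshold, 652 kept their direction and lost the call, 5 gained it and 11 changed sign. The genes called in TDP-43 cKO against Control (655 higher, 1938 lower) became 1156 and 3473 with DESeq2, 416 and 856 with at least 4 of the 7 markers, 52 and 12 with at least 3000 UMIs, 1057 and 2744 without the 20% of cells with the most germ cell UMIs, 85 and 93 with free RNA subtracted, 0 and 0 with at least 10000 UMIs, 107 and 57 with both, and 0 and 0 where an adjusted p under 0.01 was asked for together with at least 1 on the log2 scale. With 1 mouse left out they ranged from 0 to 1394 and from 0 to 3057. They were 0 and 0 without Control replicate 1 or 3 or any TDP-43 cKO mouse, 421 and 1235 without Control replicate 4, 1394 and 2900 without NELF-B cKO replicate 1 and 1034 and 3057 without NELF-B cKO replicate 2. In NELF-B cKO against Control, DESeq2 called 70 and 9, and with 1 mouse left out 0 to 3 genes were higher (3 without NELF-B cKO replicate 1) and 0 lower. In TDP-43 cKO against NELF-B cKO, DESeq2 called 2 and 6, subtraction gave 1 lower and, at 10000 UMIs, 7 lower, and leaving out 1 mouse gave 0 to 1 higher and 0 to 8 lower (1 and 8 without NELF-B cKO replicate 2). The cause was not tested, beyond the fewer mice or cells of each setting.

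The replicate block, a fit with the replicate number as a term, gave 0 and 0 calls in TDP-43 cKO against Control and a Tardbp log2 fold change of -0.51 (adjusted p = 0.131). Whether the numbers pair the mice is not known, and the labels give no shared litter or day. Correlations of deviations between same-numbered mice ran from -0.610 to 0.546, with 0.546 and 0.423 for Control and NELF-B cKO. Mice of different numbers were not compared, and deviations in a group of 2 mirror each other, so these values cannot decide it.

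Nelfb in NELF-B cKO was at -1.54 with DESeq2 (adjusted p = 0.00393), and from -2.14 to -1.11 with 1 mouse left out. Tardbp in TDP-43 cKO was at -0.46 (adjusted p = 0.0658) with no filter, -0.46 (0.0600) with at least 3000 UMIs, -0.54 (0.119) with free RNA subtracted, -0.45 (0.0970) with at least 10000 UMIs and -0.45 (0.147) with both. It ranged from -0.56 to -0.46 with 1 mouse left out and was not called without Control replicate 1, 3 or 4 or any TDP-43 cKO mouse.

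Signs changed for Ccn1 in NELF-B cKO without replicate 2 (-0.0501, in a range of -0.0501 to 3.28 with 1 mouse left out), and in TDP-43 cKO with free RNA subtracted for Crem (1.43), Hk1 (0.31), Tpi1 (0.67), Dnajb1 (1.58) and Fdft1 (2.91), and with at least 10000 UMIs too for Crem (1.61), Tpi1 (0.33), Ldha (0.14), Rdh11 (0.25) and Dnajb1 (0.39). The difference in share of Sertoli cells in NELF-B cKO, 1.61 points, became -0.068 among barcodes with at least 10000 UMIs. Without NELF-B cKO replicate 2 it was -1.46, in a range of -1.46 to 4.68 with 1 mouse left out. In number of cells the difference was -110.5, and 11.25 among cells of at least 10000 UMIs. With all Sertoli cells set over only those kept barcodes of at least 2000 UMIs, it was -1.76. The depth limit then held for the denominator alone, so this value is not a difference in share. In TDP-43 cKO, 5.34 points became 6.75 at 10000 UMIs and 7.04 with 4 markers (exact permutation p = 0.0571 for each). They became 7.01 with markers at 0.4% of UMIs and 9.34 under 20% mitochondrial UMIs (exact permutation p = 0.0571 for each). With 1 mouse left out they ranged from 3.76 to 6.37. In number of cells the difference was -2.17 (exact permutation p = 1). Among cells of at least 10000 UMIs it was 187 (exact permutation p = 0.0571). With the same denominator of 2000 UMIs, which gives no share, the difference was 1.13 (exact permutation p = 0.514). Depth limits Nelfb, which rests on 14 and 49 UMIs in NELF-B cKO and 25 to 107 UMIs in Control.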

Other observations

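Some further genes were higher in TDP-43 cKO Sertoli cells than in Control. They were picked from the 107 genes called with at least 10000 UMIs and free RNA subtracted, after their values were seen, so they are single descriptions and stand for no group. Mean CPM values of these genes are of all Sertoli cells, while adjusted p values are of the deeper cells after subtraction. Sh3bgr, a small protein with an SH3-binding domain, had the lowest adjusted p there (0.00705). It averaged 12.9 CPM in the Control mice and 53.6 CPM in the TDP-43 cKO mice, where Control free RNA had 1.80 CPM. Edn1, which encodes the peptide endothelin 1, averaged 35.9 and 152 CPM (adjusted p = 0.0102 after subtraction, log2 fold change 1.84).

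Zyx and Trip6, LIM proteins of focal adhesions, averaged 126 and 257 CPM and 21.7 and 63.4 CPM in Control and TDP-43 cKO. Their log2 fold changes after subtraction were 0.80 and 1.29 (edgeR adjusted p = 0.025 and 0.0121). Arpc1b, a subunit of the complex that branches actin, averaged 237 and 501 CPM. It was at 1.04 among all cells and 0.86 after subtraction (adjusted p = 0.016). Ltbp1, which holds latent TGF-beta in the matrix, averaged 45.0 and 132 CPM, at 1.50 and, after subtraction, 1.22 (adjusted p = 0.0219). Pcsk1n, a secreted inhibitor of a prohormone convertase, averaged 385 and 970 CPM, at 1.29 and, after subtraction, 1.15 (adjusted p = 0.0171). Markers of peritubular myoid cells moved with these genes, at 0.000799% to 0.00291% of Sertoli UMIs in Control and 0.00476% to 0.00730% in TDP-43 cKO (5 genes, up to 2 and up to 1 of them at 0 in a mouse), and their part in the values was not tested.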
